A study of Homo sapiens with 6 samples.

Results

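NF-kappaB is a family of dimeric transcription factors that switch on inflammatory and survival genes, and several of the genes it activates encode proteins that shut it off again. A set of 10 genes of this circuit was examined in Cal33, a human oral squamous cell carcinoma line: the 4 subunits RELA, RELB, NFKB1 and NFKB2, and the 6 feedback inhibitors NFKBIA, NFKBIE, TNFAIP3, TNIP1, ZC3H12A and BIRC3. They were chosen by gene name from the 14136 entries of the deposited table, all 10 were present, and all 10 passed the filter on low values. The names were picked with the difference between CES2 and Vector cells already known, so that difference is described here and supports no claim.

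The cells had been infected with lentivirus that was packaged in the human embryonic kidney line 293FT. Vector cells (3 libraries) carried the empty pSin-EF2 plasmid, and CES2 cells (3 libraries) carried pSin-EF2 with FLAG-tagged CES2, the gene of carboxylesterase 2, a hydrolase of drug and lipid esters. Both groups were stably selected with puromycin at 0.5 ug/ml and grown in the same serum-containing medium, and no stimulus of NF-kappaB is named in the labels. Whether the 3 libraries of each group represent separate infections or cultures is not said in the labels, and p-values here measure the spread among these libraries alone, part or all of which may be technical. Abundance is in TPM (transcript abundance scaled by length and to a total of 1000000 in each library), from which the sequencing depth cannot be read. CES2 itself ranged from 41.9 to 45.6 TPM across the Vector libraries and from 1929 to 2664 TPM across those of CES2, the side on which the labels place it. Each of 8 squamous epithelial markers had a row, with summed levels of 3910 to 5220 TPM (Vector) and 3840 to 5280 TPM (CES2), although KRT14 was only at 1.14 to 2.97 TPM in the 6 libraries. Of 6 leukocyte markers 3 had no row, among them PTPRC, and the summed level of the rest was 6.51 to 12.3 TPM (Vector) and 5.97 to 8.82 TPM (CES2). Of 6 fibroblast markers only COL1A1 had a row, and the 3 of 4 endothelial markers with a row summed to 10.2 to 25.8 TPM (Vector) and 11.2 to 20.5 TPM (CES2).

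The libraries did not fall into their groups. Vector 1 and CES2 2 had a Pearson correlation of 0.978 over the log2 values of 12210 tested genes, the highest of any pair, against 0.944 for Vector 1 with Vector 2 and 0.932 for CES2 2 with CES2 3. Ranges given below for a difference or a median are therefore the lowest and highest value with 1 library left out, with the library behind each.

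In resting cells the subunit dimers are held in the cytoplasm by IkappaB proteins. IKK kinases mark IkappaB for destruction when receptors such as those for TNF and interleukin 1 are engaged, and the freed dimers bind 10-base kappaB sites in DNA. RELA with the NFKB1 product p50 is the classical dimer, and RELB with the NFKB2 product p52 the dimer of the alternative arm, while the uncut NFKB1 and NFKB2 proteins themselves act as inhibitors. Keratinocytes and the squamous carcinomas derived from them use the pathway to make chemokines.

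Among these genes, 6 carried a match to the kappaB consensus next to a start site, and these stretches are shown so that the matched letters can be read; a match is a description, not a shown binding site. RefSeq promoter windows (GRCh38.p14, 250 bases before to 50 after a start site) were found for 8 of the 10 genes, in 13 windows, and not for RELB and NFKBIE. The consensus, which opens with GGG and closes with CC, was searched on both strands, and overlapping matches were kept. It was found in 7 of the 13 windows and in 6 of the 8 genes, against 11.3% of all 35116 windows and 17.5% of the 9609 tested genes that have a window. ZC3H12A and RELA had none in their windows, which says only that these letters are not there. Capitals mark the matches, and every stretch reads 5′ to 3′ on the strand of its gene. Where matches lie in an annotated exon, 30 bases around 1 match or 1 cluster of matches are shown. The further NFKB2 matches, at -78 from the same start site and at -176 and -21 from the next, are not printed, although that at -176 lies in no exon of the gene.
NFKBIA, chr14:35404750-35404999, minus strand: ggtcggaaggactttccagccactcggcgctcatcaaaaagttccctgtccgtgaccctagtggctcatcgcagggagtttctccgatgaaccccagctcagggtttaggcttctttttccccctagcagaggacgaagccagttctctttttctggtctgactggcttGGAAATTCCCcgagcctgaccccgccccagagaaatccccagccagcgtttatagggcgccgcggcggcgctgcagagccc
BIRC3, chr11:102317234-102317449, plus strand: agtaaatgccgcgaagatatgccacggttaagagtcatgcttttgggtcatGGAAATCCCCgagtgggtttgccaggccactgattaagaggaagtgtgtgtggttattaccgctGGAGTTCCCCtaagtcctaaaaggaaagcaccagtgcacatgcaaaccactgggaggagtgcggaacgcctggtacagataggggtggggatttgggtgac
NFKB1, chr4:102501109-102501328, plus strand: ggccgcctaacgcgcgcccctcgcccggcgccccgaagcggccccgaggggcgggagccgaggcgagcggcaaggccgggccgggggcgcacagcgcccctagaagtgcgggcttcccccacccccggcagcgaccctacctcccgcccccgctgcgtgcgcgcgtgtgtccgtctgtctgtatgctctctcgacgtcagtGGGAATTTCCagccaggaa
TNFAIP3, chr6:137867188-137867217, plus strand: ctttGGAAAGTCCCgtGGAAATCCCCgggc
TNIP1, chr5:151081057-151081086, minus strand: ccagtctccgGGGACTTTCCcaggggtggg
NFKB2, chr10:102394462-102394491, plus strand: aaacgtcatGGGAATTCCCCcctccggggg

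The NFKBIA match begins at position -81 from the RefSeq start site and reads as kappaB on the opposite strand. TNFAIP3 has 2 matches, which begin at -67 and -55 and lie in the first exon of the listed transcript. That transcript starts 71 bases upstream of the RefSeq start site. BIRC3 has 2, beginning at -199 and -135, both on the opposite strand, and NFKB1 has 1, beginning at -49. In TNIP1 the match begins at -42, in an annotated exon of the gene and upstream of the start of the listed transcript. NFKB2 differs from these, since the window at the start of its listed transcript holds no match and the matches lie in the windows of 2 start sites further into the gene, 468 and 1595 bases from it.

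The feedback inhibitors had higher mean levels in CES2 than in Vector cells, all 6 of them, and the order of size was ZC3H12A, TNFAIP3, BIRC3, NFKBIA, NFKBIE and TNIP1. Among the subunits RELB was higher in CES2 too and NFKB2 by less, with overlapping groups, while NFKB1 and RELA lay near 0. The median difference on the log2(TPM + 1) scale was 0.90 over the 6 inhibitors and 0.31 over the 4 subunits, beside -0.06 over all 12210 tested genes. The difference between both medians was not tested, because the genes had been chosen with it in view. With single libraries left out the inhibitor median ranged from 0.67 (without Vector 3) to 1.31 (without Vector 1), and that of the subunits from 0.25 (without CES2 2) to 0.40 (without Vector 1). Without both Vector 1 and CES2 2 the medians were 1.14 and 0.35.

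No gene of the set passed an adjusted p of 0.05 in the fit across all tested genes (limma, Benjamini-Hochberg adjustment, every adjusted p 1.00), where 0.00819% of genes passed, namely CES2 alone. At an unadjusted p under 0.05 there were 4 of the 10 (NFKBIA, TNFAIP3, ZC3H12A and RELB) against 1.09% of all tested genes, and 0.59% with higher values in CES2, the direction of all 4. In 5 of the 10 every CES2 library lay above every Vector library, against 1.07% of all tested genes, and in 0 of the 10 was every CES2 library lower, against 2.63%. Because the genes were picked on this contrast, nothing is read from these shares. With bulk RNA, more cells that express a gene and more RNA per cell cannot be told apart.

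**Figure D1:**
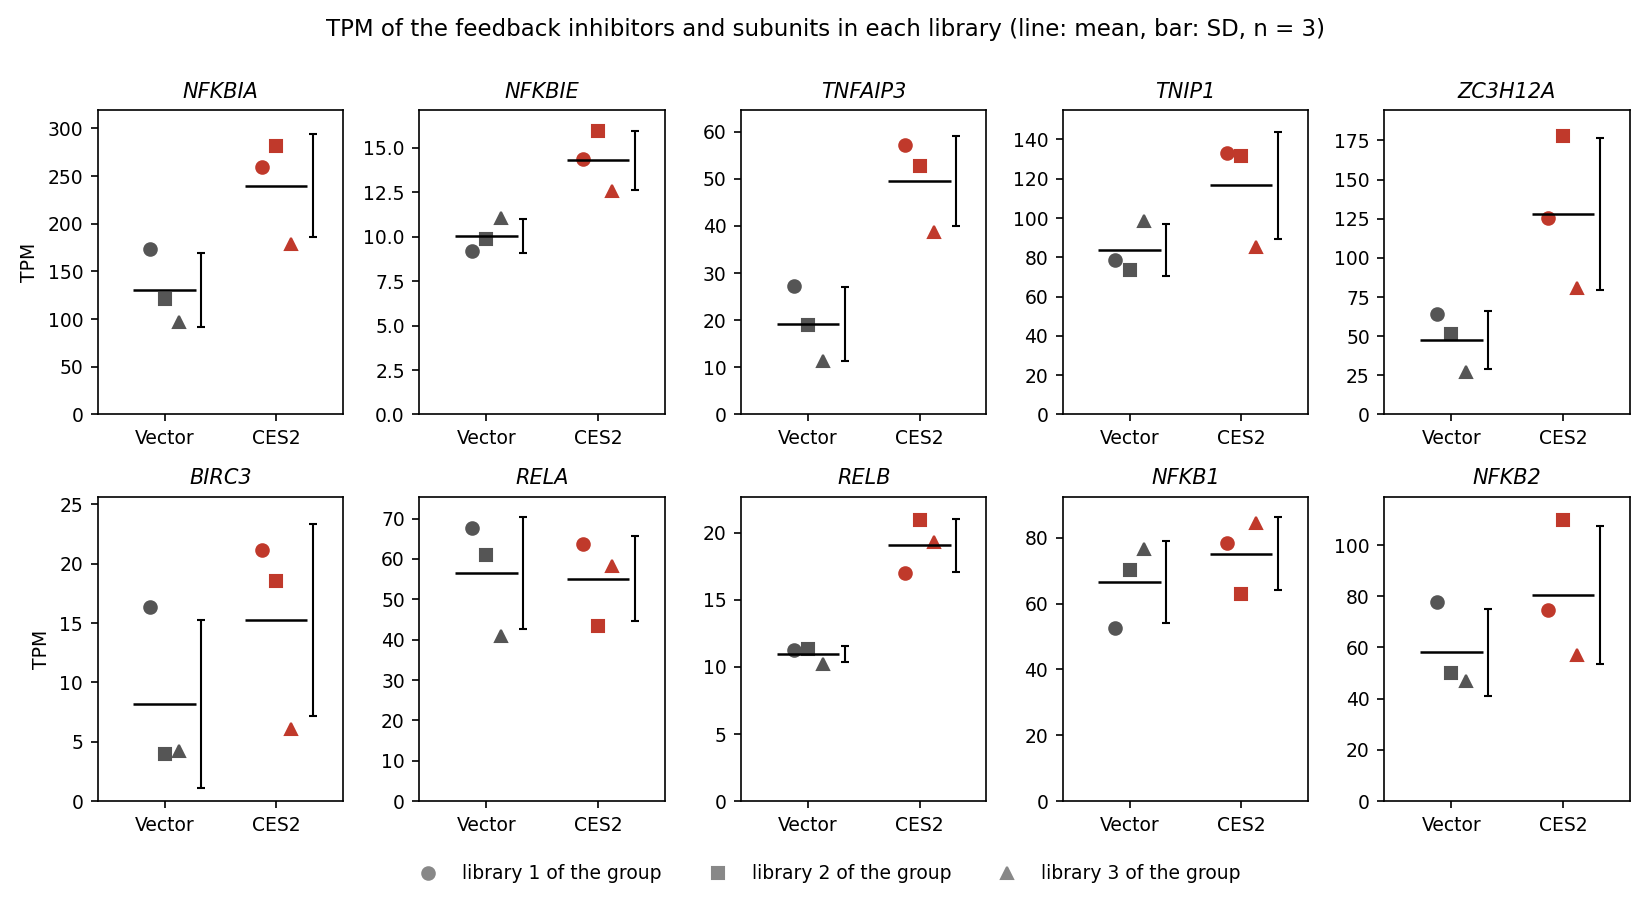
Level in TPM (vertical axis, linear from 0, a separate scale per gene) of each inhibitor and subunit in the 3 Vector and 3 CES2 libraries, with symbols for the library number, a line at the mean and a bar for the SD. Groups are apart for NFKBIA, NFKBIE, TNFAIP3, ZC3H12A and RELB and overlap for TNIP1, BIRC3, RELA, NFKB1 and NFKB2.

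NFKBIA encodes IkappaBalpha, the inhibitor that binds RELA dimers and is resynthesised within the classical loop. Its gene (ENSG00000100906, listed transcript of 6 exons and 1558 bases, chr14:35401511-35404746, minus strand, GRCh38) measured 173, 121 and 97.3 TPM for Vector 1, 2 and 3, against 259, 282 and 179 TPM for CES2 1, 2 and 3. Libraries are listed in this order throughout. The groups were apart by only a little, since the highest Vector library (Vector 1) was at 173 TPM and the lowest CES2 library (CES2 3) at 179 TPM. Vector averaged 130.6 ± 39.0 TPM (SD, n = 3) against 239.8 ± 54.2 TPM for CES2 (SD, n = 3), and the log2 difference was 0.89 with a standard error of 0.27. With single libraries left out that difference ranged from 0.70 (without Vector 3) to 1.11 (without Vector 1).

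NFKBIE encodes IkappaBepsilon, a related inhibitor expressed at lower level. It (ENSG00000146232, 6 exons, chr6:44258166-44265788, minus strand) measured 9.19, 9.86 and 11.1 TPM across the Vector libraries, against 14.4, 15.9 and 12.6 TPM across those of CES2. The groups did not overlap, and the spread within each was narrower than for NFKBIA. Means were 10.0 ± 0.951 and 14.3 ± 1.68 TPM (SD, n = 3 each), a log2 difference of 0.47 with a standard error of 0.21 and a range from 0.39 (without CES2 2) to 0.55 (without CES2 3).

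TNFAIP3 encodes A20, an enzyme that edits ubiquitin chains on signalling proteins upstream of IKK. The gene (ENSG00000118503, 9 exons, chr6:137867188-137883311, plus strand) measured 27.2, 19.0 and 11.4 TPM across the Vector libraries, against 57.1, 52.7 and 38.7 TPM across those of CES2. All CES2 libraries were above the highest Vector library, which was Vector 1. The ratio of means was 2.58 and the log2 difference 1.38 with a standard error of 0.32, between 1.07 (without Vector 3) and 1.67 (without Vector 1).

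TNIP1 encodes ABIN1, which brings A20 to its ubiquitin-bearing targets. It (ENSG00000145901, 17 exons, chr5:151029945-151081016, minus strand) measured 78.8, 73.5 and 98.5 TPM across the Vector libraries, against 133, 132 and 85.05 TPM across those of CES2. CES2 3 lay below Vector 3, so the groups overlapped, and the log2 difference of 0.46 had a standard error of 0.23. It ranged from 0.35 (without CES2 1) to 0.67 (without CES2 3). Among the Vector libraries TNIP1 was highest in Vector 3, where TNFAIP3 was lowest.

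ZC3H12A encodes Regnase-1, an endoribonuclease that degrades messengers of inflammatory cytokines. Its gene (ENSG00000163874, 6 exons, chr1:37474552-37484379, plus strand) measured 64.1, 51.6 and 27.2 TPM across the Vector libraries, against 125, 178 and 80.8 TPM across those of CES2. The groups were apart, and the ratio of means, 2.69, was the highest of the 10 genes. Its log2 difference was 1.42 with a standard error of 0.37, and it ranged from 1.07 (without Vector 3) to 1.71 (without CES2 3).

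BIRC3 encodes cIAP2, a ubiquitin ligase that takes part in TNF receptor signalling and restrains the NFKB2 arm. The gene (ENSG00000023445, 10 exons, chr11:102317450-102339394, plus strand) measured 16.3, 3.99 and 4.19 TPM across the Vector libraries, against 21.2, 18.5 and 6.05 TPM across those of CES2. Vector 1 lay among the CES2 values and CES2 3 close to Vector 2 and 3, so each group held a library near the other group. The log2 difference was 0.92 with a standard error of 0.58, the widest of the 10, and it ranged from 0.61 (without Vector 2) to 1.51 (without Vector 1). Its paralog BIRC2 (cIAP1), named for that relation, averaged 22.5 TPM (Vector) and 22.3 TPM (CES2), with a standard error of 0.35 on the log2 difference. It ranged from 13.9 to 31.2 TPM in Vector and from 17.2 to 32.2 TPM in CES2.

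RELA encodes p65, the subunit with the activation domain of the classical dimer. It (ENSG00000173039, 11 exons, chr11:65653596-65663094, minus strand) measured 67.6, 60.9 and 40.9 TPM across the Vector libraries, against 63.6, 43.4 and 58.3 TPM across those of CES2. The groups interleaved, and means of 56.5 ± 13.9 and 55.1 ± 10.4 TPM (SD, n = 3 each) gave a log2 difference of -0.02 with a standard error of 0.25. The sign was not stable: it was 0.04 after median rescaling of the libraries, 0.24 with library weights and -0.23 without Vector 3.

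RELB encodes the activating subunit of the alternative dimer. The gene (ENSG00000104856, 12 exons, chr19:45001430-45038194, plus strand) measured 11.2, 11.3 and 10.2 TPM across the Vector libraries, against 17.0, 20.9 and 19.3 TPM across those of CES2. Both groups were narrow and did not overlap, with means of 10.9 ± 0.607 and 19.1 ± 1.99 TPM (SD, n = 3 each). The log2 difference was 0.75 with a standard error of 0.20, and it stayed between 0.65 and 0.82 under the 14 alternative settings.

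NFKB1 encodes p105, the precursor of p50. It (ENSG00000109320, 24 exons, chr4:102501329-102617302, plus strand) measured 52.7, 70.2 and 76.5 TPM across the Vector libraries, against 78.3, 62.7 and 84.4 TPM across those of CES2. CES2 2 lay below Vector 2 and Vector 3, and the log2 difference of 0.18 had a standard error of 0.21. It ranged from 0.02 (without Vector 1) to 0.30 (without CES2 2).

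NFKB2 encodes p100, the precursor of p52. The table lists it (ENSG00000077150, plus strand) with a transcript of 3 exons and 585 bases at chr10:102394110-102396298, whose 3′ end is marked incomplete in GENCODE release 29. The other 9 genes were listed with transcripts of 1558 to 4735 bases. Whether the row covers the other NFKB2 transcripts is not given in the sources used here, so its level was not ranked against other genes. It measured 77.7, 49.99 and 46.8 TPM across the Vector libraries, against 74.5, 109.8 and 57.1 TPM across those of CES2. Vector 1 exceeded CES2 1 and CES2 3, and the log2 difference of 0.45 with a standard error of 0.29 was 0.20 without CES2 2 and 0.67 without Vector 1.

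**Figure D2:**
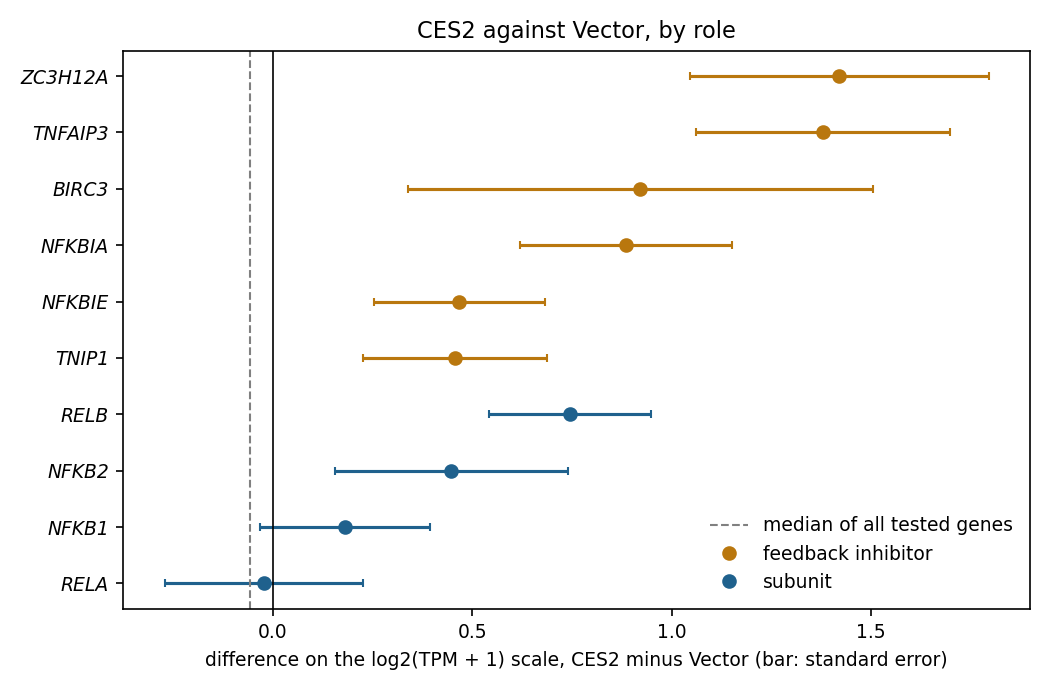
Difference between CES2 and Vector on the log2(TPM + 1) scale (horizontal axis) for each gene, grouped by role, with standard errors as bars, a solid line at 0 and a dashed line at the median of all tested genes. ZC3H12A at 1.42 and TNFAIP3 at 1.38 lie farthest from 0, RELB at 0.75 is the highest subunit, and RELA at -0.02 lies at 0.

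Levels are set side by side here because TPM is per length. Whether a row covers transcripts beyond the listed one is not given for the 9 genes ranked either. Unlike that of NFKB2, their listed transcripts are not marked incomplete at the 3′ end. The order is therefore a description that rests on the lengths used upstream. In Vector cells NFKBIA had the highest mean of the 9 genes ranked and BIRC3 the lowest, at 130.6 and 8.17 TPM. Between them stood TNIP1, NFKB1, RELA, ZC3H12A, TNFAIP3, RELB and NFKBIE in that order, and in this order neighbouring ranges overlapped at every step except from TNFAIP3 to RELB. In CES2 cells NFKBIA again led, and its lowest library, at 179 TPM, was above the highest of ZC3H12A, at 178 TPM. ZC3H12A, behind TNIP1, NFKB1 and RELA among the Vector means, was the next highest mean in CES2 at 128.0 TPM, and its range overlapped that of TNIP1. TNFAIP3 remained below RELA in mean level, with overlapping ranges, at 49.5 against 55.1 TPM.

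A ratio within a library does not depend on how that library was scaled, so each gene was divided by RELA, a denominator chosen after its values were seen. NFKBIA was at 2.57, 1.99 and 2.38 times RELA in Vector and at 4.08, 6.48 and 3.07 times RELA in CES2. TNFAIP3 was at 0.402, 0.312 and 0.278 times RELA in Vector and at 0.898, 1.21 and 0.665 times RELA in CES2. For ZC3H12A these ratios were 0.948, 0.847 and 0.663 in Vector and 1.97, 4.09 and 1.39 in CES2. The groups were apart for these 3 inhibitors and for RELB, whose mean ratio was 0.201 ± 0.0438 in Vector and 0.360 ± 0.110 in CES2 (SD, n = 3 each). They overlapped for NFKBIE, TNIP1, BIRC3, NFKB1 and NFKB2. NFKBIE therefore did not keep the separation that it had in TPM, since its ratio in Vector 3, 0.270, exceeded those in CES2 1 and CES2 3, 0.226 and 0.216. CES2 2 had the highest ratio of every inhibitor, and RELA itself was lowest there among the CES2 libraries. The share of all tested genes that would be apart after division by RELA was not computed. Nothing is therefore read from how many of these genes were apart.

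**Figure D3:**
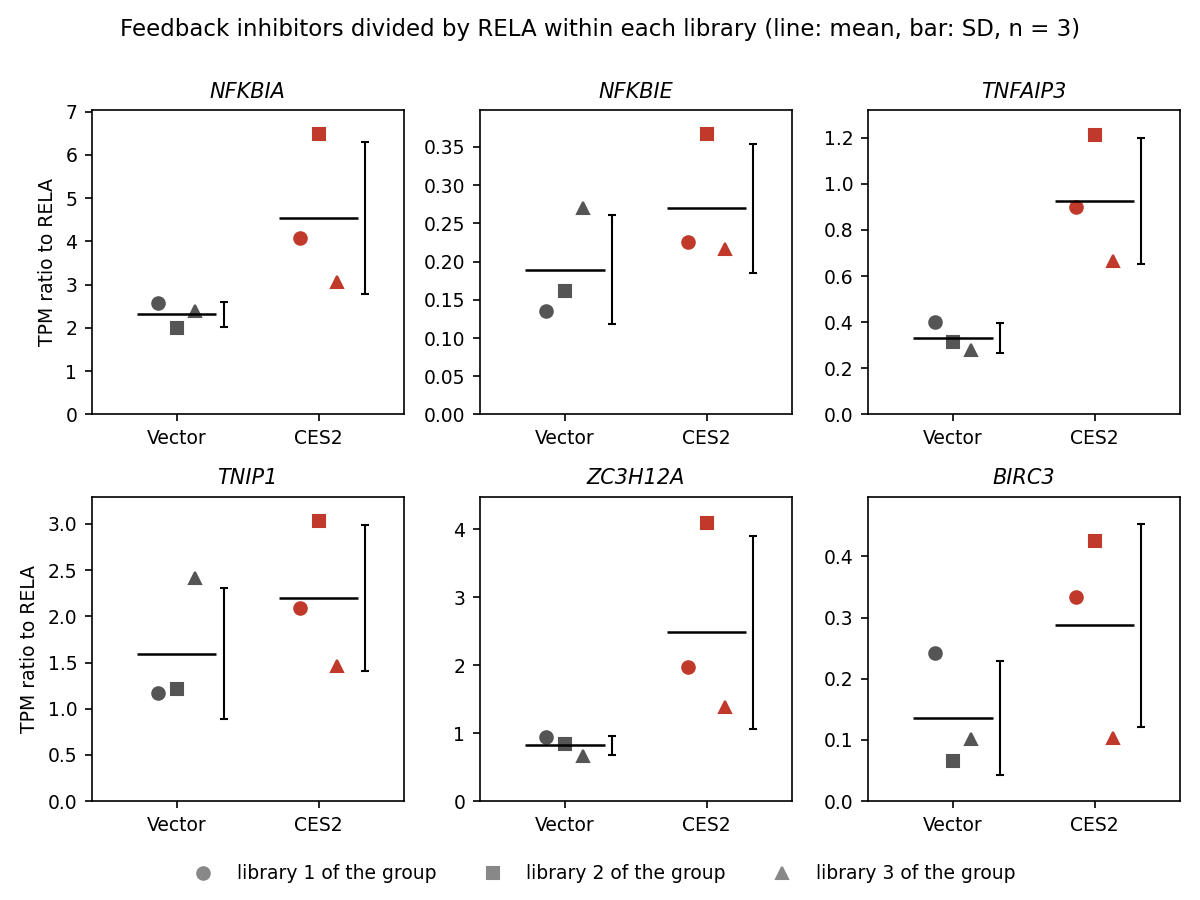
TPM of each feedback inhibitor divided by the TPM of RELA in the same library (vertical axis, linear from 0, a separate scale per gene), with symbols for the library number, a line at the mean and a bar for the SD. NFKBIA, TNFAIP3 and ZC3H12A are apart between groups, and NFKBIE, TNIP1 and BIRC3 overlap.

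The spread within each group, which enters the standard errors above, was not the same in all libraries. Those errors are limma's moderated ones, drawn toward a trend with level over all tested genes. They are therefore not each gene's own spread. NFKB2, NFKBIA, TNFAIP3, ZC3H12A and BIRC3 were all highest in Vector 1 among the Vector libraries and lowest in CES2 3 among the CES2 libraries. On the log2(TPM + 1) scale their deviations from the group mean ranged from 0.45 (NFKBIA) to 1.18 (BIRC3) in Vector 1 and from -0.33 (TNFAIP3) to -1.04 (BIRC3) in CES2 3. Of all tested genes 26.9% showed this pattern, and the share of the 10 was not tested against it. NFKB1 went the other way, at -0.31 in Vector 1 and 0.18 in CES2 3. RELB varied least in this respect, with deviations between -0.15 and 0.13.

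**Figure D4:**
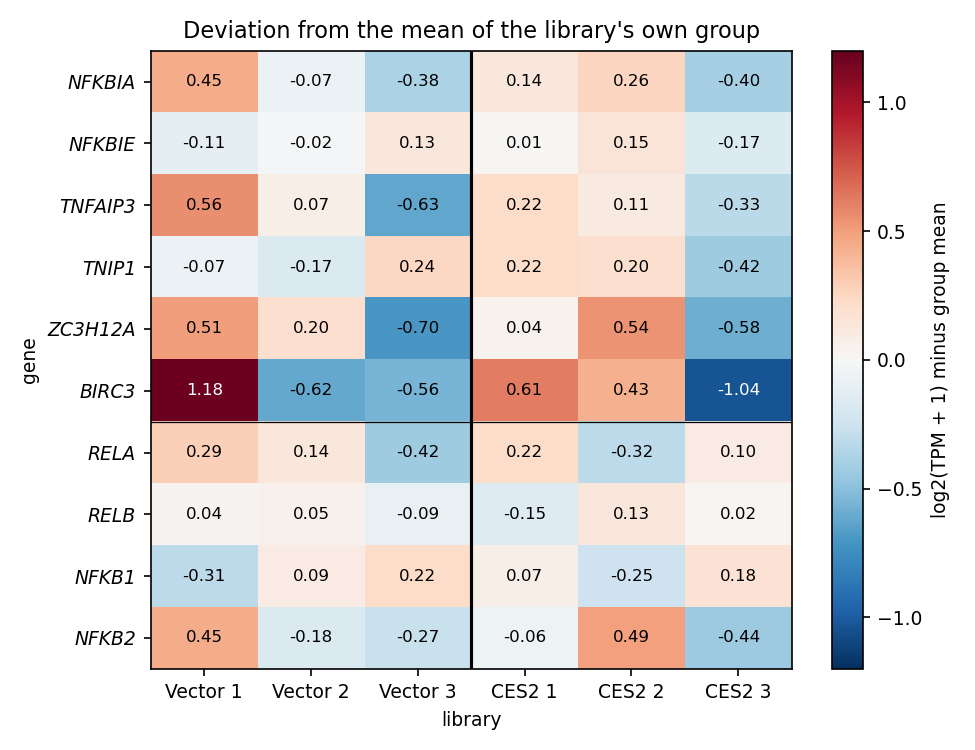
Deviation of each gene from the mean of the library's own group on the log2(TPM + 1) scale, as colour and number, with libraries across and genes down. Vector 1 is above and CES2 3 below its group mean for NFKBIA, TNFAIP3, ZC3H12A, BIRC3 and NFKB2, and NFKB1 shows the opposite signs.

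Genes outside the set with the closest pattern were ranked by the root mean square difference of centred log2(TPM + 1) values over the 6 libraries, as a description. Closest to NFKBIA was IRAK2, a kinase of the interleukin 1 receptor pathway, with a difference of 0.064, followed by IFNGR1 at 0.131 and BDKRB2 at 0.142. IRAK2 measured 21.1, 15.1 and 10.5 TPM across the Vector libraries, against 31.7, 33.3 and 23.0 TPM across those of CES2, without overlap. FEZ1, CXCL1 and LIF were closest to TNFAIP3, at 0.218, 0.223 and 0.243. C4orf48, RTEL1 and RNASEH2C were closest to RELB, at 0.113, 0.122 and 0.164. Within the set, TNFAIP3 lay nearest to ZC3H12A (0.229), RELB to NFKBIE (0.206) and NFKBIA to NFKB2 (0.261).

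The rest of the pathway was read from 8 further lists of 105 genes, of which 89 were tested, 11 had no row and 5 were below the filter. None of the 89 passed the adjusted p of 0.05 (limma), and 13 had an unadjusted p under 0.05, 9 of them among the chemokine and cytokine targets, beside 1.09% of all tested genes. Of the 89, 50 were above 0, beside 36.3% of all tested genes, the share against which the counts above 0 that follow are to be read. These lists too were chosen with earlier results of these data known, so such counts and shares are descriptive and support no claim. The layers above the dimers were centred near 0. The 9 tested receptors had a median log2 difference of -0.04 and a range from -0.27 (TLR3) to 0.14 (TLR2), with IL1R1 at -0.21. These small values rested on single libraries, since TLR3 was at -0.08 without Vector 3, TLR2 at 0.02 without CES2 2 and IL1R1 at 0.19 without Vector 1. The 21 adaptors and upstream kinases had a median of -0.09, with TAB3 at -0.28 and TRAF6 at -0.26, while IRAK2 stood at 0.90 with a standard error of 0.29. TAB3 ranged from -0.49 (without Vector 2) to -0.07 (without Vector 1), TRAF6 from -0.37 (without Vector 2) to -0.16 (without Vector 3) and IRAK2 from 0.67 (without Vector 3) to 1.14 (without Vector 1).

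The IKK complex itself, named for its role, had close mean TPM in both groups. CHUK (IKKalpha) averaged 24.0 TPM (Vector) and 23.8 TPM (CES2), IKBKB (IKKbeta) at 29.2 and 29.9 TPM, and IKBKG (NEMO) at 38.1 and 39.2 TPM. The standard errors of their log2 differences were 0.26, 0.36 and 0.21, so differences of that size are not excluded. IKBKB, for instance, ranged from 20.3 to 42.6 TPM in Vector and from 18.0 to 41.7 TPM in CES2. Over the 9 IKK kinases and linear ubiquitin ligase genes the median log2 difference was -0.02, with TANK at -0.21 and RNF31 at -0.16, both of which turned above 0 when 1 library was left out (Vector 1 for TANK, 0.15, and Vector 3 for RNF31, 0.01). IKBKE, an IKK-related kinase, was the exception in size at 0.67 with a standard error of 0.24, with 15.3, 15.1 and 14.1 TPM across the Vector libraries against 25.7, 30.4 and 17.9 TPM across those of CES2 and no overlap. It ranged from 0.50 (without CES2 2) to 0.87 (without CES2 3).

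Among other Rel and IkappaB proteins, 4 of 5 were above 0 and the median log2 difference was 0.17. BCL3, an IkappaB-like coactivator of p50 and p52, measured 54.6, 42.7 and 55.5 TPM across the Vector libraries, against 63.1, 71.7 and 69.4 TPM across those of CES2, without overlap, and differed by 0.42 with a standard error of 0.19. NFKBIZ, a nuclear IkappaB protein, differed by 0.35 with overlapping groups, from 0.07 (without Vector 3) to 0.73 (without CES2 3). The subunit REL differed by -0.27, from -0.45 (without Vector 2) to -0.12 (without Vector 1).

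Other brakes on the pathway were centred at 0.01, with 8 of 14 tested genes above 0. TNIP3, which encodes the A20 partner ABIN3, stood apart at 1.49 with a standard error of 0.78. It measured 6.76, 2.41 and 0.144 TPM across the Vector libraries, against 12.1, 14.5 and 2.27 TPM across those of CES2, so CES2 3 lay within the Vector range. The difference was 0.76 without Vector 3, 2.19 without CES2 3 and 2.22 with a pseudocount of 0.1. TNIP2 differed by 0.32 (0.13 without CES2 3) and the deubiquitinase OTUD7B by -0.18 (0.03 without Vector 3). The mRNA decay proteins, which like Regnase-1 limit inflammatory messengers, had a median of -0.18 over 6 tested genes, with ZFP36L2 at -0.42, ZFP36L1 at 0.32 and RC3H1, the gene of Roquin-1, at -0.26. Single libraries decided these sizes: ZFP36L2 was at -0.06 without Vector 3 and -0.71 without Vector 2, ZFP36L1 at 0.10 without Vector 2 and 0.57 without Vector 1, and RC3H1 at 0.04 without Vector 3. The difference between these lists and the 6 inhibitors described above was not tested.

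Target genes outside the chemokines were above 0 in 12 of 16 tested, with a median of 0.28. PTGS2, the inducible cyclooxygenase, differed by 1.23 and SOD2, the mitochondrial superoxide dismutase, by 1.15, both with overlapping groups. SOD2 was at 248 TPM in CES2 2 and at most 91.4 TPM in the other libraries, and its difference was 0.48 without CES2 2 and 1.78 without CES2 3. PTGS2 ranged from 0.91 (without CES2 1) to 1.77 (without CES2 3). IL32 differed by 0.95, or 2.28 with a pseudocount of 0.1, from a level of at most 0.789 TPM in Vector. ICAM1, a much-used NF-kappaB target named here for that reason, was below the filter, at 0.224 to 1.25 TPM in the 6 libraries. All 9 tested chemokine and cytokine targets were above 0 (median 1.52), led by CCL20 at 3.39 (2.5 without Vector 3 and 4.17 without Vector 1), CCL2 at 2.74 and CXCL3 at 2.39. IL6 was below the filter and TNF had no row. IL1A was at most 0.764 TPM in Vector and 1.48 to 2.83 TPM in CES2. Like IL32, it could pass the filter only by being higher in CES2. The signs of IL1A and IL32 therefore carry no weight in these counts, nor in the 13 genes with an unadjusted p under 0.05 (limma). CCL20 had the same library order as ZC3H12A, with 119.8, 45.9 and 10.9 TPM across the Vector libraries against 502.8, 862 and 177 TPM across those of CES2.

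**Figure D5:**
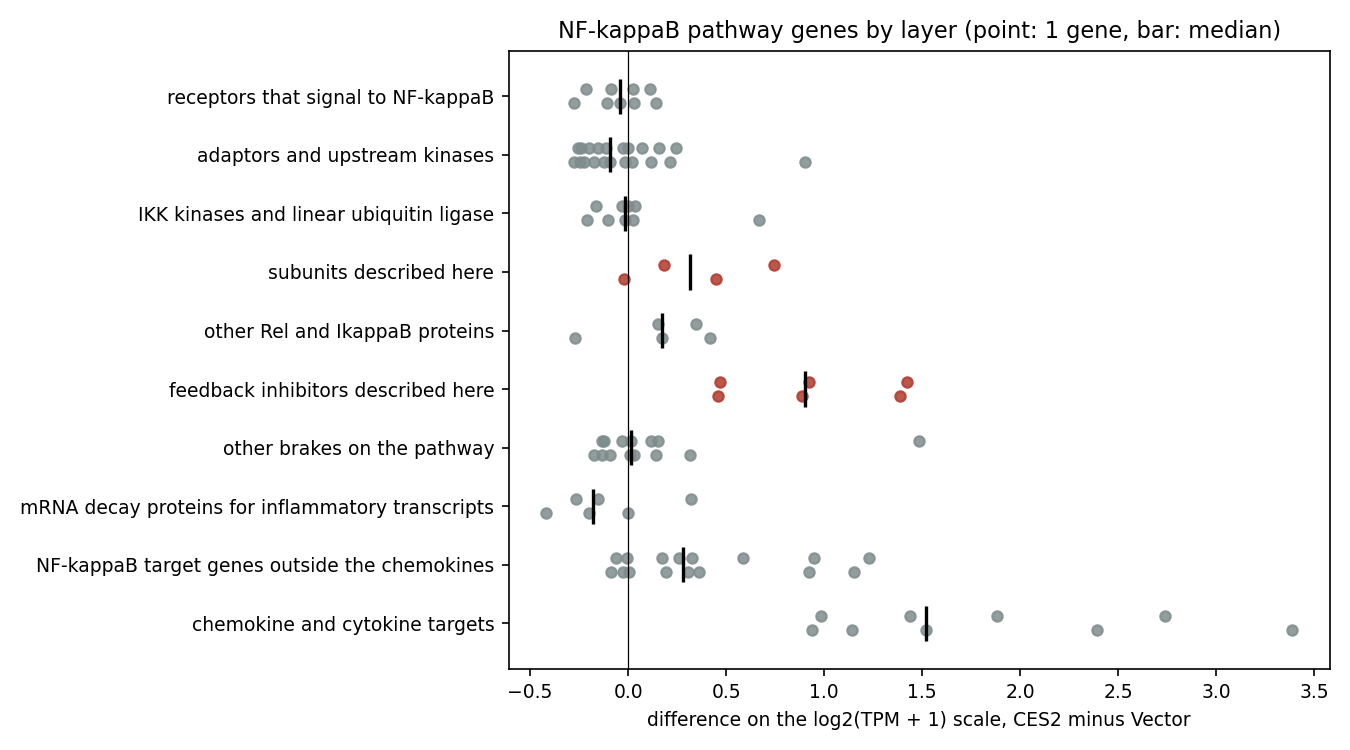
Difference between CES2 and Vector on the log2(TPM + 1) scale (horizontal axis) for each tested gene of the pathway, 1 point per gene, in rows from receptors to targets, with a black bar at the median of each row. The medians of receptors, adaptors and IKK genes lie between -0.09 and -0.02, those of the inhibitors and chemokines at 0.90 and 1.52.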

How the data were processed

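RNA of 6 Cal33 libraries (Vector and CES2, 3 each, grouped by sample titles) was described by 1 table that the authors deposited. The authors deposited these values already normalized, and they were taken as TPM because each column summed to between 999804 and 999893. Per the submitters' processing notes, the tools were StringTie 1.3.3, HISAT2 2.1.0 and edgeR 3.0.8, with builds hg38 and GRCh38, and no roles are named. The sources used here do not name the annotation, the filters or how strand was handled, although the labels' protocols describe ribosomal RNA removal and strand marking. TPM keeps no depth, so no counting interval is given. Blank entries (73 to 279 per library) were read as 0, and 20 symbols turned into dates were restored from gene identifiers.

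The 12210 genes that reached 1 TPM in 3 or more libraries were compared as log2(TPM + 1) by limma 3.58.1 in R 4.3.3, two-sided, with an intensity trend, group as the only term and Benjamini-Hochberg adjustment over all tested genes at 0.05. The fit was run on simulated data with independent noise in each library. That setting lacks the likeness between libraries of different groups seen here, so it cannot show how the fit behaves under it. Differences on this scale understate the change of low genes. Python 3.11.15, pandas 2.3.3 and matplotlib 3.10.9 were used for tables and plots. The members, the further lists and the tests were chosen with earlier results of these data known. Named beyond the members, by rule, were the 3 genes with the largest absolute difference in each further list, CES2, and the 3 genes closest in pattern to NFKBIA, TNFAIP3 and RELB. Exceptions are said in the text. Listed transcripts were compared with GENCODE release 29, where all 10 had the same coordinates. Promoter sequences are RefSeq's. Alternatives covered the pseudocount, the filter, scaling, the trend, library weights, the replicate number and left-out libraries.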

Additional observations from a re-analysis of the deposited data

How the results depend on the processing

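All 6 feedback inhibitors stayed above 0 under each of the 14 alternatives, as did RELB, NFKB1 and NFKB2, while RELA was above 0 in 7 of them, from -0.23 to 0.28. None of the 10 passed the adjusted threshold in any, and the lowest adjusted p was 0.141, for TNFAIP3 with library weights. The inhibitor median of 0.90 moved to 1.29 with library weights and ranged from 0.67 to 1.31 with single libraries left out, the highest without Vector 1. The subunit median ranged from 0.25 to 0.40 in the same way. The count of genes past the threshold, 1 for all libraries, was 4 with library weights (CES2, CCL2, CXCL1 and CXCL3), from 1 to 2 with single libraries left out (2 without CES2 3), and 2 without both Vector 1 and CES2 2, an alternative chosen after seeing the data. CCL2 and CXCL3 passed with library weights, at 3.00 and 2.86. With single libraries left out, signs turned for TANK (-0.449 to 0.151, highest without Vector 1), IL1R1 (-0.668 to 0.188, above 0 without Vector 1 and, at 0.0416, without CES2 3), RNF31 (-0.432 to 0.0112), RC3H1 (-0.528 to 0.0396) and OTUD7B (-0.369 to 0.0309), the last 3 highest without Vector 3, and TANK was at 0.143 without both Vector 1 and CES2 2. The cause was not tested. Median rescaling moved the median of all genes from -0.06 to 0.005. Deviations of same-numbered libraries correlated at 0.145, -0.524 and 0.375 over 12210 genes. With 3 libraries per group, whose deviations sum to 0, these values cannot decide whether the numbers pair them. With the replicate block 1 gene passed and the inhibitor and subunit medians were 0.90 and 0.31. Standard errors fell for ZC3H12A (0.374 to 0.225), BIRC3 (0.583 to 0.384), TNFAIP3 (0.318 to 0.224), NFKBIA (0.266 to 0.199), NFKB2 and RELA. They rose for NFKBIE (0.214 to 0.242), TNIP1 (0.231 to 0.26), RELB (0.203 to 0.226) and NFKB1. Depth is unknown, so levels under about 1 TPM, such as those of ICAM1 and IL32, have an unknown counting error.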
